A study of Mus musculus with 6 samples.

Results

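The DNA replication and G1/S genes are 52 genes whose products license origins, unwind and copy DNA, supply nucleotides and histones, or start S phase through E2F and cyclin E. They were taken by gene symbol from a list written with earlier results of these data known, and all 52 were found among the 22332 symbols of the deposited table. Every one passed the filter on low counts, as did 15084 genes of the table, and the lowest count of a member in any library was 167. RNA was sequenced after ribosomal RNA depletion. The cells were of the mouse embryonic stem cell line CGR8, kept on gelatin with 10% FBS and the cytokine LIF. In siRSL24D1 cells (n = 3) a pool of siRNAs was directed against Rsl24d1, whose protein helps to assemble the large subunit of the ribosome. The siCtrl cells (n = 3) received a pool of non-targeting siRNAs. Both groups were collected 48 hours after transfection, so siRNA is common to both. The series' text calls the triplicates independent but does not say what was repeated, so p-values measure the spread between these samples, which may be partly technical.

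Rsl24d1 itself had 53.8, 55.6 and 52.1 CPM in the siRSL24D1 libraries, against 99.4, 102.7 and 98.0 CPM in the siCtrl libraries (CPM are counts scaled to library size, with TMM, the trimmed-mean correction of edgeR). The transcript was therefore reduced to 0.538 of its siCtrl level and not removed (adjusted p = 2.0e-05, edgeR's quasi-likelihood test with Benjamini-Hochberg adjustment over all 15084 genes, used for adjusted p-values throughout unless another test is named). Library totals were 30943635 to 35214000 estimated counts. All 10 pluripotency markers on the list used, among them Pou5f1, Sox2 and Nanog, were detected in every library, with a summed level of 2648 to 2747 CPM in siRSL24D1 cells and 3040 to 3376 CPM in siCtrl cells, without TMM scaling. Of markers of other cell types, 8 of 8 fibroblast, 6 of 6 endoderm, 5 of 5 trophoblast and 4 of 4 neuroectoderm genes had counts, though the endoderm gene Afp was at 0 in 3 libraries. Their summed levels were 122.8 to 149.5 CPM in siRSL24D1 cells and 125.0 to 158.6 CPM in siCtrl cells for fibroblasts. For endoderm they were 9.002 to 10.3 CPM in siRSL24D1 cells and 6.57 to 8.18 CPM in siCtrl cells. For trophoblast they were 50.1 to 52.8 CPM in siRSL24D1 cells and 53.8 to 58.0 CPM in siCtrl cells, where Krt7 fell (-0.75) while Cdx2 (1.58) and Eomes (0.43) rose, all as log2 fold changes. The neuroectoderm sum was 53.5 to 60.2 CPM in siRSL24D1 cells and 25.3 to 28.4 CPM in siCtrl cells and was mostly Tubb3. There Neurod1 (1.58) and Tubb3 (1.08) rose, and Sox1 and Pax6 did not pass. Of the tested endoderm genes Gata4 (0.54) and Gata6 (0.50) rose and 2 did not pass, and of the fibroblast genes Col3a1 (0.61) rose, Pdgfrb (-0.52) and Col1a2 (-0.46) fell and 4 did not pass. Among the pluripotency genes 6 fell (60.0%), by most Tdgf1 (-0.62) and Fgf4 (-0.55), 1 rose (10.0%) and 3 did not pass. Nanog was among those that fell (-0.49), while Pou5f1 (0.0012) and Sox2 (0.08) did not pass. By the same test, 20.0% of all genes tested fell and 21.2% rose. The part of these markers in the results that follow was not tested.

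Chromosomal DNA is copied once per cell cycle. In G1, the origin recognition complex, Cdc6 and Cdt1 load the ring-shaped MCM2-7 helicase onto origins. Cyclin E with its kinase, and E2F factors released from Rb, then drive the step into S phase, where Cdc45 and GINS join MCM2-7 and the polymerases copy both strands. Embryonic stem cells divide rapidly with a short G1, and are known for high levels of this machinery through most of the cycle. In RNA from whole cultures, fewer cells in S phase and less transcript per cell cannot be told apart.

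Among the replication genes that passed the test, most were lower in siRSL24D1 cells. Of the 52 members, 20 fell and 4 rose at an adjusted p under 0.05, and 28 did not pass. Across all genes tested, 20.0% were called lower and 21.2% higher, while among the members 38.5% were called lower and 7.69% higher. The median log2 fold change was -0.11 over the members and 0.02 over all genes tested. Of the members, 43 of the 52 values were below 0, against 7237 of 15084 over all genes tested. Changes were small: 3 members passed an absolute log2 fold change of 0.5, and all 3 were falls. In a stricter test, which asks whether a change exceeds 1.2-fold (glmTreat of edgeR), 5 members (9.62%) were called lower and 0 higher, against 7.46% and 7.31% of all genes, so the share called lower was near that of all genes. At an unadjusted p under 0.05, glmTreat gave 6 lower and 0 higher.

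The 5 members past 1.2-fold were Pold2, Pold1, E2f1, Chaf1b and Mcm6, and each lay with all 3 siRSL24D1 libraries below all 3 siCtrl libraries. Groups did not overlap for 28 members that were lower and 5 that were higher, which compares with 26.2% and 26.8% of all genes tested. The number of members called lower was 12 (23.1%) without siRSL24D1 3, 12 (23.1%) without siCtrl 1, 11 (21.2%) without siCtrl 2 and 28 (53.8%) without siCtrl 3, and 12 (23.1%) after a correction for transcript length, which removes trends of each library's counts with that length. Of all genes in the same runs, 14.4%, 15.5%, 14.1% and 21.5% were lower, and 17.6% after the length correction. The number called higher was 1 without siRSL24D1 3, 1 without siCtrl 2 and 2 without siCtrl 3, against 15.6%, 14.5% and 22.0% of all genes. Of the 24 called members, 11 held their call in all 6 runs that left out 1 library: Orc2, which rose, and Gmnn, Mcm6, Cdc45, Gins2, Pold1, Pold2, Rfc1, Lig1, E2f1 and Chaf1b, which fell.

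**Figure D1:**
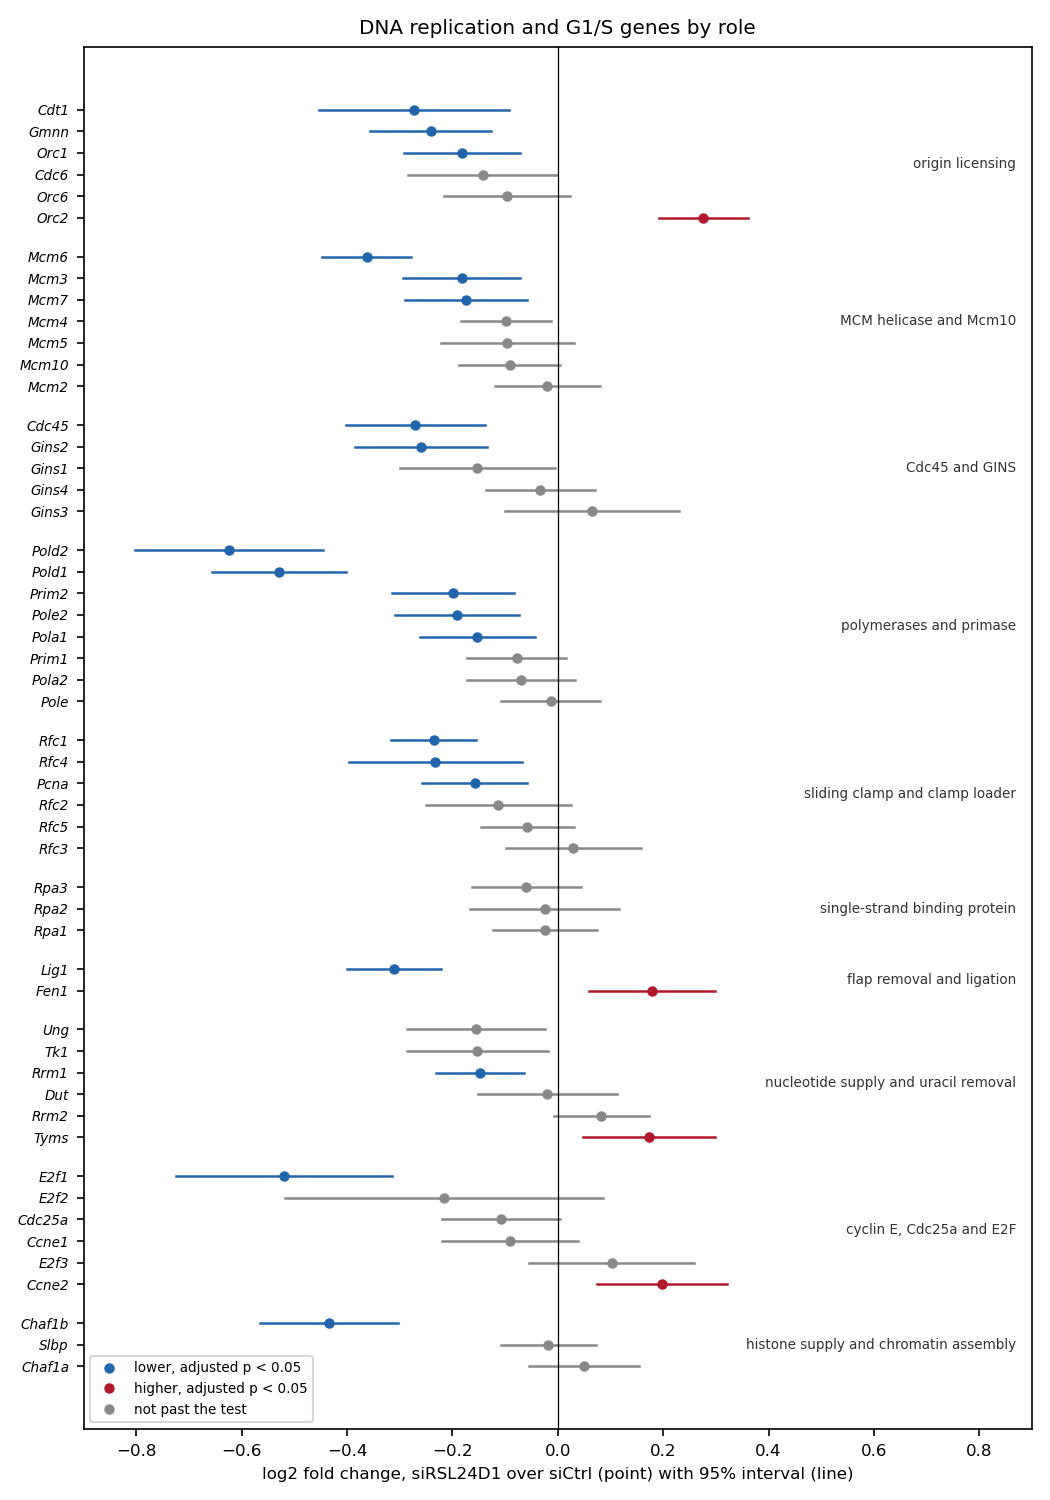
Log2 fold change of each of the 52 members (x axis, siRSL24D1 over siCtrl) with its 95% interval, arranged by role down the page and coloured by the call at an adjusted p under 0.05. Most points lie left of 0, Pold2 is farthest left at -0.62, and Orc2 is farthest right at 0.28.

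Libraries of one group differed by little. The coefficient of variation of a member had a median of 3.87% over the siRSL24D1 libraries and 4.36% over the siCtrl libraries, and its highest values were 16.8% for E2f2 in siRSL24D1 cells and 10.6% for Cdt1 in siCtrl cells. Within siRSL24D1, library 3 was the lowest of the 3 for 30 of 52 members and library 2 the highest for 32. Within siCtrl, library 3 was the lowest for 40 members, with a median deviation of -0.05 (log2) from the group mean. Members together took 0.639%, 0.641% and 0.625% of all counts in the siRSL24D1 libraries, against 0.692%, 0.691% and 0.665% in the siCtrl libraries. The siRSL24D1 shares were all below the siCtrl shares.

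Of the E2F factors that switch on S-phase genes, E2f1 fell and the other two did not pass the test. E2f1, an activating E2F (chromosome 2, 154559407 to 154569892, minus strand, GRCm38), had 14.1, 13.6 and 11.3 CPM in the siRSL24D1 libraries, against 18.4, 19.6 and 17.9 CPM in the siCtrl libraries. Its lowest siCtrl library was above its highest siRSL24D1 library (log2 fold change -0.52, SE 0.09, adjusted p = 0.00245), and it was among the least abundant members per kilobase of transcript. E2f2, another activator, was at 6.18 ± 1.04 CPM in siRSL24D1 cells and 7.17 ± 0.540 CPM in siCtrl cells (SD, n = 3 each), with overlapping groups and a log2 fold change of -0.22 (adjusted p = 0.224) whose 95% interval ran from -0.52 to 0.09. E2f3, the third activator and per kilobase the most abundant of them, had 45.7, 43.2 and 47.6 CPM in the siRSL24D1 libraries, against 41.0, 39.7 and 46.4 CPM in the siCtrl libraries. Its groups overlapped, since siCtrl 3 was above 2 of the siRSL24D1 libraries (log2 fold change 0.10, SE 0.07, adjusted p = 0.262).

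The ratio of E2f1 to E2f3 counts needs no library scaling. It was 0.308, 0.315 and 0.238 in the siRSL24D1 libraries, against 0.448, 0.494 and 0.385 in the siCtrl libraries. All 3 siRSL24D1 ratios were lower, a mean difference of -0.63 on the log2 scale (exact two-sided permutation p = 0.1; adjusted p = 0.133 over the 4 ratios tested). With 3 libraries a group, this test cannot give a smaller p.

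Of the E-type cyclins, partners of a kinase that starts S phase, Ccne2 rose and Ccne1 did not pass the test. Ccne1 had 94.1, 101 and 89.6 CPM in the siRSL24D1 libraries, against 105, 102 and 96.7 CPM in the siCtrl libraries. Its groups overlapped, with siRSL24D1 2 above siCtrl 3 (log2 fold change -0.09, SE 0.06, adjusted p = 0.228). Ccne2 had 33.7, 36.1 and 37.0 CPM in the siRSL24D1 libraries, against 32.0, 31.0 and 30.2 CPM in the siCtrl libraries. Every siRSL24D1 library was above every siCtrl library, and Ccne2 rose (log2 fold change 0.20, SE 0.05, adjusted p = 0.0191), a call lost under the DESeq2 test, after the length correction and without siRSL24D1 3, siCtrl 2 or siCtrl 3 (adjusted p = 0.0511 to 0.0804). Ints8 on the opposite strand shares 17.4% of the exonic length of Ccne2 and was at 0.03 (adjusted p = 0.582).

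The Ccne1 to Ccne2 count ratio was 2.79, 2.80 and 2.42 in the siRSL24D1 libraries, against 3.29, 3.28 and 3.20 in the siCtrl libraries. It was lower in all 3 siRSL24D1 libraries, with a mean difference of -0.29 on the log2 scale (exact two-sided permutation p = 0.1, adjusted p = 0.133). Cdc25a, the phosphatase that activates the cyclin E kinase, was at -0.11 (adjusted p = 0.109) and did not pass, though its groups did not overlap.

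Promoters of many replication genes are known to carry E2F sites, so the promoter letters were read beside the fold changes. In windows from 250 bases before to 50 bases after each RefSeq transcription start (GRCm38.p6), matches were sought on both strands to the E2F letters TTTCCCGC, TTTGGCGC, TTTCGCGC and TTTGCCGC, to the letters TTTGAA of the cell cycle homology region (CHR) of mitotic genes, and to CCAAT. Windows were found for 43 of the 52 members, 51 in all, and none for Gmnn, Mcm4, Gins1, Gins2, Gins4, Prim2, Pole, Rfc2 or Ccne2. An E2F match was present in 16 of the 51 windows (31.4%), against 3.62% of 14839 windows of all genes tested and 2.26% of all 32851 promoter windows of this length. Base composition was alike, with a median of 60.0% G and C in the members' windows and 60.3% in those of all genes tested. CHR letters were in 13.7% of the members' windows and CCAAT in 58.8%, against 12.3% and 37.6% for all genes tested. Matches to different letters were counted separately and may share bases.

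In 30 G2/M and mitosis genes, read the same way for comparison, the E2F letters were in 1 of 24 windows (4.17%) and the CHR letters in 16 (66.7%). Split by the expression test, an E2F match was in 9 of 17 members that fell, 7 of 23 that did not pass and 0 of 3 that rose and had a window. By window these shares were 42.9%, 28.0% and 0.0%. For all genes tested with the same calls they were 4.28%, 3.52% and 3.26%. Median G and C was 63.0% in windows of members that fell and 47.7% in those of members that rose. The difference by call was not tested. These counts describe letters within a fixed window and are not evidence of binding.

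**Figure D2:**
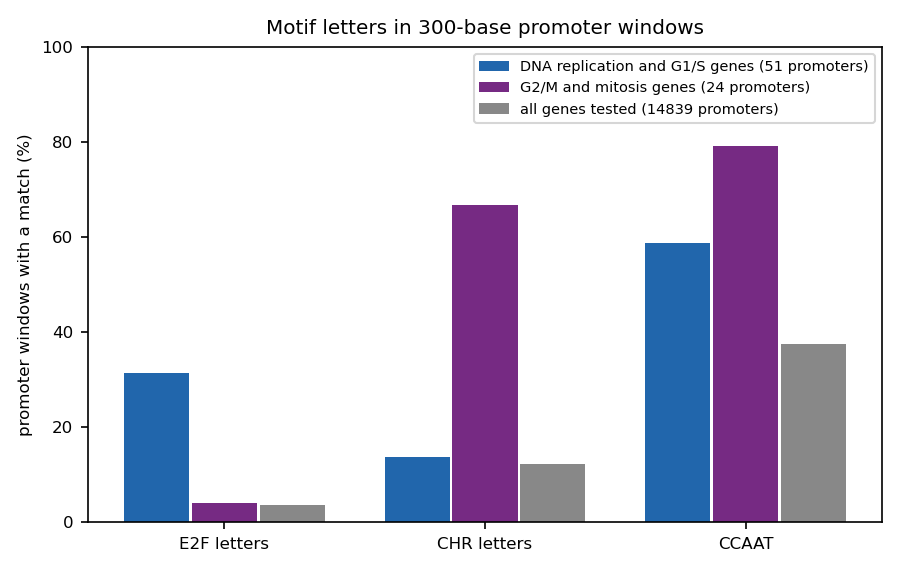
Share of 300-base promoter windows (y axis, %) with at least 1 match to the E2F, CHR or CCAAT letters, for the replication genes, the G2/M and mitosis genes and all genes tested. The replication genes stand at 31.4% for the E2F letters and the mitosis genes at 66.7% for the CHR letters.

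The promoters of 5 members are printed below to show how these matches sit in a member that fell clearly (Mcm6), a member with a smaller fall (Pola1), members that did not pass (Mcm5 and Cdc25a) and the member that rose most (Orc2). Each run is 180 bases, from base -180 to base -1 before the annotated start, 5′ to 3′ on the gene's strand, from RefSeq promoter sequences on GRCm38.p6. Capitals mark E2F matches. The Mcm6 window lies at chr1:128359706-128359885 on the minus strand, Pola1 at chrX:93632156-93632335 on the minus strand, Mcm5 at chr8:75109329-75109508 on the plus strand, Cdc25a at chr9:109875399-109875578 on the plus strand and Orc2 at chr1:58505110-58505289 on the minus strand.
Mcm6: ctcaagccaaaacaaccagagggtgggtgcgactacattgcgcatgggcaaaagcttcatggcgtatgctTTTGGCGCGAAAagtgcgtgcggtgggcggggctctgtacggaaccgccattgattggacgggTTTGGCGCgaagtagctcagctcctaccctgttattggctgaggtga
Pola1: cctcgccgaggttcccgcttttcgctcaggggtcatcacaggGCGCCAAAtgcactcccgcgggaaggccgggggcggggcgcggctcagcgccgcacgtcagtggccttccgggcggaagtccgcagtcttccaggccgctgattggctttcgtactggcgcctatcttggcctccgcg
Mcm5: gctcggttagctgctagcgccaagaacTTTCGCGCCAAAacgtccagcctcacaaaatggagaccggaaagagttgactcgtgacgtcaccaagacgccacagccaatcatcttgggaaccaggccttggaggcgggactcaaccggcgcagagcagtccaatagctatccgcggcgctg
Cdc25a: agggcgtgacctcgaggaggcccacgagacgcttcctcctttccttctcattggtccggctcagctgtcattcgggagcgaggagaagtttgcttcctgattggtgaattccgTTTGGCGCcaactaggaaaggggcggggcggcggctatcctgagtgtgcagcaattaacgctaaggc
Orc2: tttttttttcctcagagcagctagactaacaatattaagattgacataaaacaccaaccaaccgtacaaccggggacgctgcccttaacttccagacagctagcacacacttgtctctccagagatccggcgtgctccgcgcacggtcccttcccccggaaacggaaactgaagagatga
Mcm6 held 3 matches starting at bases -110, -106 and -47, of which the pair at -110 and -106 overlap on opposite strands as 1 run of capitals. Mcm5 held a like overlapping pair at -153 and -149, Pola1 a match at -138 and Cdc25a a match at -67. The Orc2 window held none. The 5 promoters were picked as examples, and Mcm6 had more matches than any other member. Of the other members past 1.2-fold, Pold1 had 1 match, starting at base 40 after the start. The 300-base windows of Pold2, which fell most, and of E2f1 and Chaf1b held 0. The E2f1 window (chromosome 2, 154569377 to 154569676, minus strand) lies inside the gene model, whose 5′ end is at 154569892. Sequence upstream of that 5′ end was not read, so absence of the letters there is not shown.

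Of 6 origin licensing members, 3 fell, 1 rose and 2 did not pass. Orc2, a subunit of the origin recognition complex (chromosome 1, 58462771 to 58505109, minus strand), had 124, 127 and 129 CPM in the siRSL24D1 libraries, against 105, 105 and 104 CPM in the siCtrl libraries. The groups were far apart relative to their spread, and this was the largest rise among the members (log2 fold change 0.28, SE 0.04, adjusted p = 0.000754). Nif3l1, on the opposite strand, shares 29.8% of the exonic length of Orc2 and was at 0.22 (adjusted p = 0.0121). The kit marked strand but the strand setting of the counting is not given, so reads of these partners cannot be told apart.

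Orc1, the subunit whose amount varies with the cycle, fell by a small amount, at -0.18 (adjusted p = 0.0173), and lost its call without siRSL24D1 1, siRSL24D1 3 or siCtrl 2 (adjusted p = 0.06 to 0.0742). Orc6 was at -0.10 (adjusted p = 0.17) and Cdc6, the loader of the helicase, at -0.14 (adjusted p = 0.0982). Neither passed, but both passed without siCtrl 3 (adjusted p = 0.0301 and 0.0101).

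Cdt1, which brings the helicase to origins, had 62.3, 55.8 and 58.9 CPM in the siRSL24D1 libraries, against 65.0, 69.0 and 79.6 CPM in the siCtrl libraries. The siCtrl values were spread, with siCtrl 3 the highest, and siCtrl 1 was close to siRSL24D1 1 (log2 fold change -0.27, SE 0.08, adjusted p = 0.0245). The call was lost without siRSL24D1 2 or siRSL24D1 3 (adjusted p = 0.0652 and 0.0709). Gmnn encodes geminin, the inhibitor that binds Cdt1 after S phase begins, and had 67.4, 71.5 and 66.4 CPM in the siRSL24D1 libraries, against 84.9, 79.6 and 78.1 CPM in the siCtrl libraries. The groups did not overlap and Gmnn fell (log2 fold change -0.24, SE 0.05, adjusted p = 0.0059), with an adjusted p of 0.0507 after the length correction.

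The count ratio of Cdt1 to its inhibitor Gmnn was 0.925, 0.780 and 0.887 in the siRSL24D1 libraries, against 0.765, 0.867 and 1.02 in the siCtrl libraries. The groups overlapped fully, with a mean log2 difference of -0.03 (exact two-sided permutation p = 1.0, adjusted p = 1.0).

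All 7 helicase members had negative fold changes, and 3 passed (42.9%), against 20.0% of all genes tested that were called lower. Mcm6 (chromosome 1, 128331590 to 128359664, minus strand) had 306, 298 and 295 CPM in the siRSL24D1 libraries, against 384, 391 and 380.4 CPM in the siCtrl libraries. The gap between the groups was much wider than the range within either (log2 fold change -0.36, SE 0.04, adjusted p = 0.000218), and it kept its call under every alternative run. Mcm3 was at -0.18 (adjusted p = 0.0177) and Mcm7 at -0.17 (adjusted p = 0.0255), and both lost their call without any 1 of siRSL24D1 1, siRSL24D1 3, siCtrl 1 and siCtrl 2. After the length correction neither passed, with folds that were no smaller, at -0.19 for Mcm3 (adjusted p = 0.0555) and -0.18 for Mcm7 (adjusted p = 0.0737). The other ring subunits did not pass, with Mcm4 at -0.10 (adjusted p = 0.0647), Mcm5 at -0.10 (adjusted p = 0.201) and Mcm2 at -0.02 (adjusted p = 0.744). Mcm4 passed with upper-quartile scaling (adjusted p = 0.0348), and Mcm5 without siCtrl 3, at -0.16 (adjusted p = 0.0218). The 95% interval of Mcm2 ran from -0.12 to 0.08, and its sign turned with library totals as the scaling.

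The MCM2-7 proteins form a ring with 1 copy of each, and their transcripts were unequal. Per kilobase of the principal transcript, Mcm5 was highest at 139.8 in siRSL24D1 cells and 149 in siCtrl cells, and Mcm4 lowest at 57.5 in siRSL24D1 cells and 61.5 in siCtrl cells. Mcm6 stood at 103 in siRSL24D1 cells and 132 in siCtrl cells on this scale and Mcm3 at 102 in siRSL24D1 cells and 115 in siCtrl cells, so the gap between these levels was small in siRSL24D1 cells. The summed level of the 6 genes was 1931, 1984 and 1868 CPM in the siRSL24D1 libraries, against 2192, 2203 and 2064 CPM in the siCtrl libraries, with no overlap. Mcm10, a separate replication factor that helps to activate the helicase, did not pass, at -0.09 (adjusted p = 0.115), but did so once siCtrl 3 was left out (adjusted p = 0.0305).

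Among the partners that complete the active helicase, 2 of 5 fell (40.0%), against 20.0% of all genes tested. Cdc45 (chromosome 16, 18780447 to 18811987, minus strand) had 52.7, 54.3 and 52.2 CPM in the siRSL24D1 libraries, against 67.7, 65.5 and 58.9 CPM in the siCtrl libraries. All siRSL24D1 libraries were lower and close together (log2 fold change -0.27, SE 0.06, adjusted p = 0.00663). Of the GINS subunits, Gins2 fell to 62.6 ± 2.19 CPM in siRSL24D1 cells, against 74.9 ± 4.44 CPM in siCtrl cells (SD, n = 3 each; log2 fold change -0.26, SE 0.05, adjusted p = 0.00625). Gse1 on the opposite strand shares 67.3% of the exonic length of Gins2 and was at 0.73 without passing (adjusted p = 0.0678). Gins1 was at -0.15 (adjusted p = 0.0892), Gins4 at -0.03 (adjusted p = 0.583) and Gins3 at 0.06 (adjusted p = 0.504), none past the test, though Gins1 passed without siCtrl 3 (adjusted p = 0.0273).

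**Figure D3:**
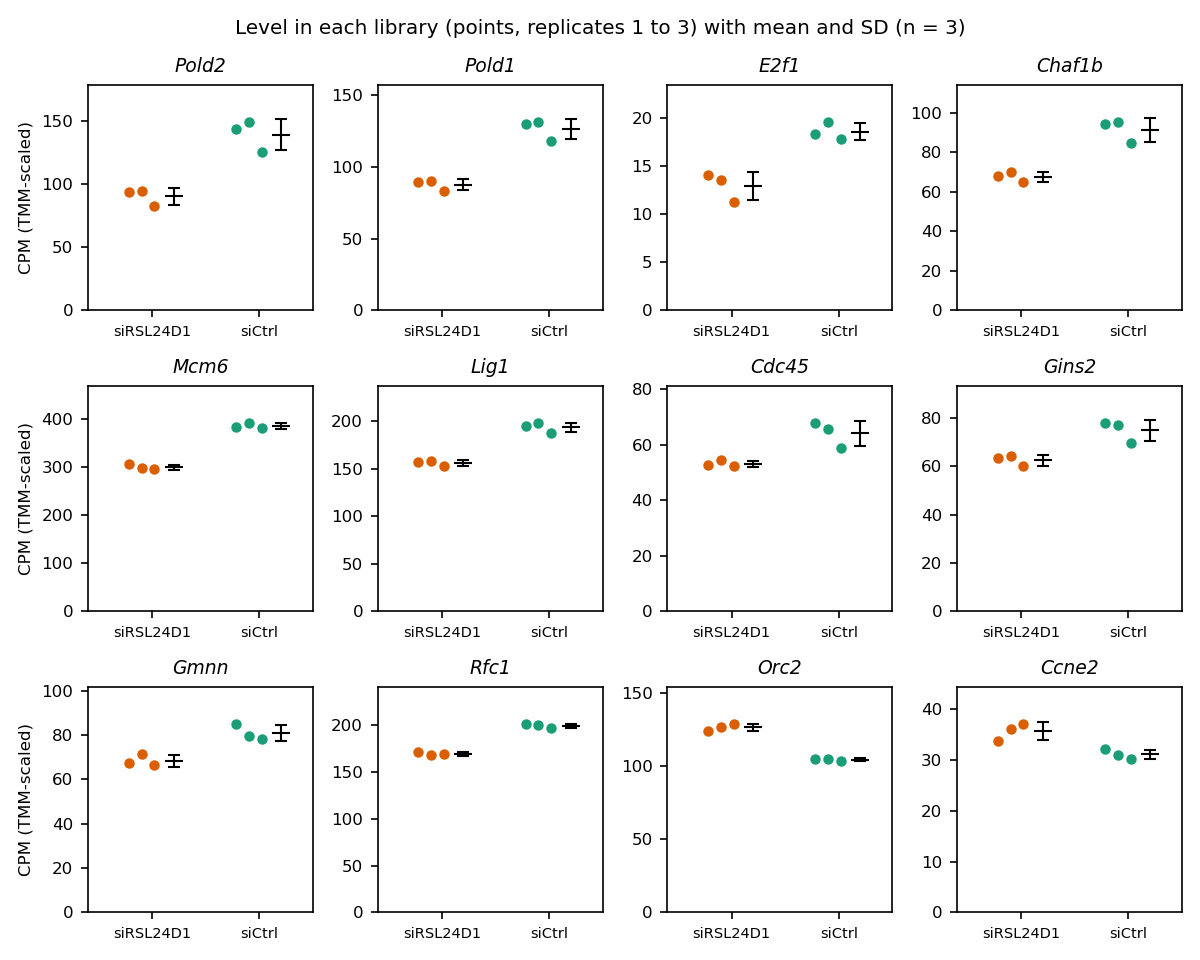
Level of 12 members in each library (y axes, TMM-scaled CPM from 0; points are replicates 1 to 3, bars are mean and SD, n = 3). The 12 were picked from called members whose groups did not overlap, so the separation shown follows from the pick. The siRSL24D1 points are all higher than the siCtrl points for Orc2 and Ccne2 and all lower for the other 10 genes. Groups overlapped for 19 of the 52 members.

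Among the 52 members, the largest falls were in subunits of DNA polymerase delta, which copies the lagging strand. Pold2, its accessory subunit (chromosome 11, 5872180 to 5878292, minus strand), had 93.8, 94.4 and 82.2 CPM in the siRSL24D1 libraries, against 143, 149 and 125 CPM in the siCtrl libraries. Library 3 was the lowest within each group, and the groups stayed well apart (log2 fold change -0.62, SE 0.08, adjusted p = 0.000544). Pold1, the catalytic subunit (chromosome 7, 44532746 to 44548849, minus strand), had 89.9, 90.1 and 83.1 CPM in the siRSL24D1 libraries, against 130.1, 131 and 118 CPM in the siCtrl libraries. Its libraries had the same order as those of Pold2, with no overlap (log2 fold change -0.53, SE 0.06, adjusted p = 0.000248). The other 2 subunits of this polymerase are not among the 52 genes but were on the list of other fork genes. Pold4 was at -0.72 (adjusted p = 0.000982) and Pold3, named after its value was seen, at -0.27 (adjusted p = 0.00114).

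Of polymerase epsilon, which copies the leading strand, 1 of the 2 member subunits fell, where 20.0% of all genes tested were called lower. Its catalytic subunit Pole was at -0.01 (adjusted p = 0.819), with a 95% interval from -0.11 to 0.08, and its sign turned with library totals and without siRSL24D1 2. Pole2 fell slightly, to 31.6 ± 1.01 CPM in siRSL24D1 cells, against 36.1 ± 1.41 CPM in siCtrl cells (SD, n = 3 each; log2 fold change -0.19, SE 0.05, adjusted p = 0.0182). That call was lost after the length correction (adjusted p = 0.145) and without siRSL24D1 3, siCtrl 1 or siCtrl 2 (adjusted p = 0.0732 to 0.0778). Gm49384 on the same strand shares 8.5% of the exonic length of Pole2 and was at -0.18 (adjusted p = 0.323). The histone-fold subunits, which are not members, were at 0.22 for Pole3 (adjusted p = 0.0123) and 0.05 for Pole4 (adjusted p = 0.375), both named after their values were seen.

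Polymerase alpha and its primase lay down the primers, and 2 of their 4 subunits fell slightly, against 20.0% of all genes tested. Pola1, the catalytic subunit, was at -0.15 (adjusted p = 0.0323) and Prim2, the large primase subunit, at -0.20 (adjusted p = 0.0142). Pola1 lost its call with library totals and without siRSL24D1 2, siRSL24D1 3, siCtrl 1 or siCtrl 2 (adjusted p = 0.0577 to 0.138), and Prim2 after the length correction and without siCtrl 1 or siCtrl 2 (adjusted p = 0.0569 to 0.0873). Pola2 at -0.07 (adjusted p = 0.25) and Prim1 at -0.08 (adjusted p = 0.162) did not pass.

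Pcna, the sliding clamp that holds polymerases on DNA, was the most abundant member per kilobase of transcript, at 172 in siRSL24D1 cells and 191 in siCtrl cells. It was at 260.4 ± 4.38 CPM in siRSL24D1 cells and 290.4 ± 12.4 CPM in siCtrl cells (SD, n = 3 each; log2 fold change -0.16, SE 0.04, adjusted p = 0.0204), without overlap. The call was lost after the length correction (adjusted p = 0.239) and without siRSL24D1 1, siRSL24D1 3, siCtrl 1 or siCtrl 2 (adjusted p = 0.0587 to 0.102). A Pcna pseudogene is also in the table, so reads may be divided between near-identical copies.

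Of the clamp loader subunits, Rfc1, the large one, had 172, 168 and 169 CPM in the siRSL24D1 libraries, against 201, 199.8 and 197 CPM in the siCtrl libraries. The range within each group was narrow and the groups were apart (log2 fold change -0.24, SE 0.04, adjusted p = 0.00127). Rfc4 was at -0.23 (adjusted p = 0.0313), a call lost after the length correction and without siRSL24D1 3, siCtrl 1 or siCtrl 2. Eif4a2 overlaps 12.7% of its exonic length on the opposite strand and was at -0.63 (adjusted p = 7.9e-05). The remaining loader subunits did not pass, with Rfc2 at -0.11 (adjusted p = 0.169), Rfc5 at -0.06 (adjusted p = 0.26) and Rfc3 at 0.03 (adjusted p = 0.702), the last of which turned sign without siCtrl 3. Without that library Rfc2 passed, at -0.18 (adjusted p = 0.0214).

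The single-strand binding protein RPA, which coats unwound DNA, gave 0 calls in its 3 subunits by edgeR, also at an unadjusted p under 0.05, and 0 by DESeq2 or limma-voom. Rpa3, with the largest value, had 30.1, 31.0 and 30.4 CPM in the siRSL24D1 libraries, against 31.7, 32.5 and 31.2 CPM in the siCtrl libraries. The libraries did not overlap but the groups nearly touched (log2 fold change -0.06, SE 0.05, adjusted p = 0.326), and its sign turned after the length correction. Rpa1 was at -0.02 with a 95% interval from -0.12 to 0.07, and Rpa2 at -0.03 with an interval from -0.17 to 0.12.

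The 2 enzymes that finish Okazaki fragments moved in opposite directions. Lig1, the ligase that seals them (chromosome 7, 13277283 to 13311433, plus strand), had 157, 158 and 153 CPM in the siRSL24D1 libraries, against 194, 198 and 188 CPM in the siCtrl libraries. All siRSL24D1 libraries were well below the siCtrl libraries (log2 fold change -0.31, SE 0.04, adjusted p = 0.000547). Fen1, the nuclease that trims the flap, rose to 106 ± 4.15 CPM in siRSL24D1 cells, against 93.6 ± 4.89 CPM in siCtrl cells (SD, n = 3 each; log2 fold change 0.18, SE 0.05, adjusted p = 0.0249). That call was lost with upper-quartile scaling and without siRSL24D1 2, siRSL24D1 3, siCtrl 2 or siCtrl 3 (adjusted p = 0.0569 to 0.0703). An antisense gene that is not in the table, Gm10143, covers 78.8% of the Fen1 exons.

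Of 6 genes of nucleotide supply and uracil removal, 1 rose (16.7%), 1 fell (16.7%) and 4 did not pass. Of all genes tested, more were called, 21.2% higher and 20.0% lower. Tyms, thymidylate synthase, had 111, 103 and 107 CPM in the siRSL24D1 libraries, against 93.4, 89.7 and 101 CPM in the siCtrl libraries. The siRSL24D1 libraries were higher, siRSL24D1 2 and siCtrl 3 being close (log2 fold change 0.17, SE 0.05, adjusted p = 0.0344). The call was lost with upper-quartile scaling, after the length correction and without siRSL24D1 1, siRSL24D1 3, siCtrl 1 or siCtrl 2 (adjusted p = 0.0552 to 0.139). Tk1, the thymidine kinase of the salvage route, was at -0.15 (adjusted p = 0.0666), and Dut, which clears dUTP, at -0.02 (adjusted p = 0.804). Ung, which removes uracil from DNA, was at -0.16 (adjusted p = 0.0593). Tk1 and Ung did not pass but did so with upper-quartile scaling and without siRSL24D1 2 or siCtrl 3. They also passed with the replicate number as a block (adjusted p = 0.0336 for Tk1 and 0.0317 for Ung).

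Ribonucleotide reductase makes deoxynucleotides from a large subunit, Rrm1, and a small one, Rrm2. Rrm1 had 235, 238 and 238 CPM in the siRSL24D1 libraries, against 264, 266 and 257 CPM in the siCtrl libraries. The groups did not overlap and Rrm1 fell (log2 fold change -0.15, SE 0.04, adjusted p = 0.0123), with the call lost without siCtrl 1 or siCtrl 2 (adjusted p = 0.0578 and 0.069) and after the length correction, where the log2 fold change was -0.18 (adjusted p = 0.0569). Rrm2 had 177, 169 and 174 CPM in the siRSL24D1 libraries, against 164, 159.6 and 168 CPM in the siCtrl libraries. It was slightly higher in every siRSL24D1 library but did not pass (log2 fold change 0.08, SE 0.04, adjusted p = 0.127). The Rrm2 to Rrm1 count ratio was 0.755, 0.710 and 0.730 in the siRSL24D1 libraries, against 0.621, 0.600 and 0.652 in the siCtrl libraries. It was higher in all 3 siRSL24D1 libraries, by 0.23 on the log2 scale (exact two-sided permutation p = 0.1, adjusted p = 0.133).

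Newly copied DNA is packed by the chromatin assembly factor CAF-1, whose subunits include Chaf1a and Chaf1b. Chaf1b (chromosome 16, 93883901 to 93906115, plus strand) had 67.8, 69.9 and 64.9 CPM in the siRSL24D1 libraries, against 94.2, 95.2 and 84.5 CPM in the siCtrl libraries. Groups were apart by more than their own range (log2 fold change -0.43, SE 0.06, adjusted p = 0.000695). Chaf1a was at 82.1 ± 1.15 CPM in siRSL24D1 cells and 79.3 ± 3.55 CPM in siCtrl cells (SD, n = 3 each), a log2 fold change of 0.05 (adjusted p = 0.411) with a 95% interval from -0.05 to 0.15 and a sign that turned after the length correction. Ubxn6, on the opposite strand, shares 52.5% of the Chaf1a exonic length. Slbp, which binds the stem-loop of histone mRNA, was at -0.02 (adjusted p = 0.738), with an interval from -0.11 to 0.07, and turned sign with library totals and after the length correction.

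**Figure D4:**
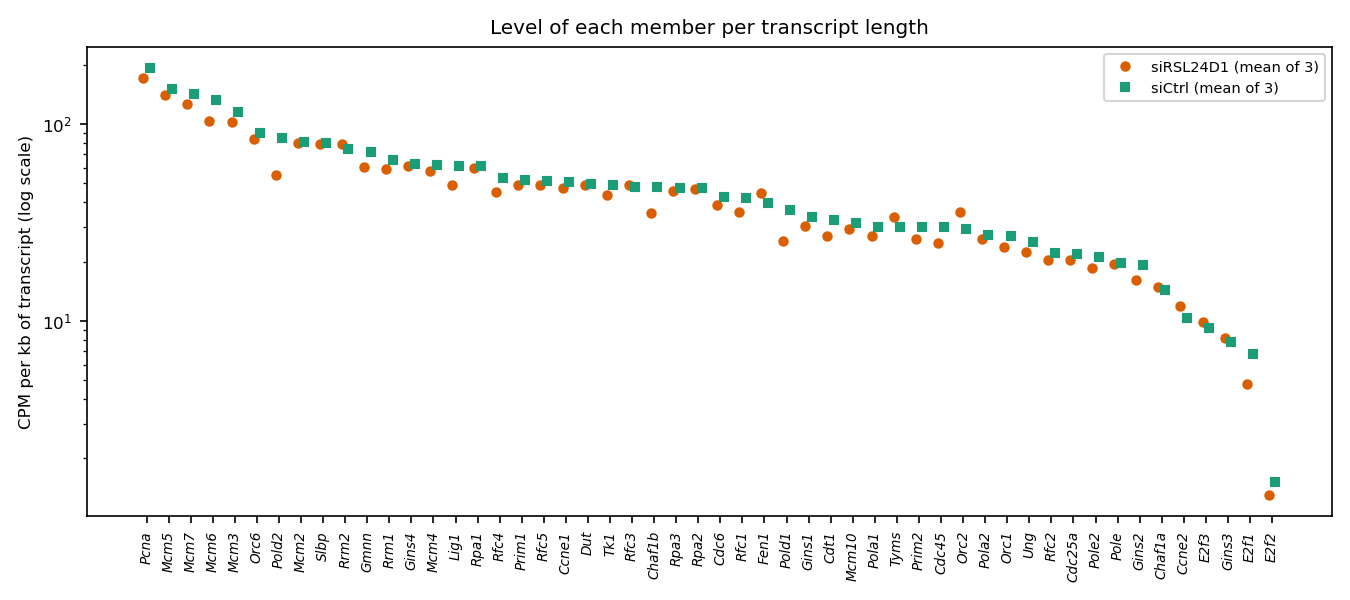
Mean level of each member per kilobase of its principal transcript (y axis, CPM per kb, log scale; 3 libraries a group), in descending order of the siCtrl level. Pcna and most MCM2-7 genes lead, E2f1 and E2f2 are lowest, and Pold2, Chaf1b, Pold1 and E2f1 show the widest gaps between the groups.

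The rest of the replication machinery was read from 6 further lists with 110 genes, all of which were tested. Together 27 fell (24.5%) and 20 rose (18.2%), at a median of -0.04, near the 20.0% lower and 21.2% higher of all genes tested. Of 15 other licensing and firing genes, 4 fell and 1 rose. Cdc7, the kinase that fires origins with Dbf4, was at -0.32 (adjusted p = 0.00171) and Recql4, a helicase-like initiation factor, at 0.30 (adjusted p = 0.00501). Of 13 other fork genes, 5 fell and 2 rose, with Primpol, a primase that restarts stalled forks, at -0.75 (adjusted p = 0.000137) beside Pold4. Of 12 fork checkpoint genes, 3 fell and 1 rose. Atr, the kinase that senses stalled forks, was at -0.31 (adjusted p = 0.000612) and Hus1, part of the checkpoint clamp, at -0.22 (adjusted p = 0.00415).

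Of 25 other nucleotide synthesis genes, 6 fell and 3 rose. Dck, the deoxycytidine kinase of salvage, was at 0.43 (adjusted p = 0.000279) and Paics, a purine synthesis enzyme, at -0.35 (adjusted p = 0.000467). Of 14 replication-coupled chromatin genes, 2 fell (14.3%) and 2 rose (14.3%), both below those shares of all genes. Both that rose were histone chaperone genes, Asf1a at 0.24 (adjusted p = 0.00705) and Tonsl at 0.17 (adjusted p = 0.0458).

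Of 31 other genes that control Rb and E2F, 11 rose (35.5%) and 7 fell (22.6%), at a median of 0.11. Of all genes tested, 21.2% were higher and 20.0% lower. Ccnd2, a D-type cyclin, was at 53.8 ± 2.48 CPM in siRSL24D1 cells and 19.8 ± 2.38 CPM in siCtrl cells (SD, n = 3 each; log2 fold change 1.44, adjusted p = 2.6e-05). Cdkn1b, the p27 inhibitor of cyclin E kinase, was at 38.0 ± 0.919 CPM in siRSL24D1 cells and 59.4 ± 1.77 CPM in siCtrl cells (log2 fold change -0.65, adjusted p = 5.0e-05). Named after their values were seen, Rb1, which restrains E2F, was at 0.54 (adjusted p = 0.0019) and Fbxw7, the ligase adaptor that marks cyclin E for destruction, at 0.62 (adjusted p = 0.000318). The other genes of the list that rose were Cdkn1a (0.41), Ccnd1 (0.40), Rbl2 (0.38), Cdkn2b (0.38), Cdk6 (0.26), E2f6 (0.23), Cdk4 (0.18) and Tfdp1 (0.17). The others that fell were Cdkn2d (-0.35), Mybl2 (-0.30), Ccnd3 (-0.27), Rbl1 (-0.23), Ccna2 (-0.22) and E2f5 (-0.16). These too were named after their values were seen.

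Genes of the later cell cycle steps were read for comparison. Of 30 G2/M and mitosis genes, 22 fell (73.3%) and 0 rose, against 20 (38.5%) and 4 of the 52 replication genes. Of all genes tested, 20.0% were lower and 21.2% higher. The median log2 fold change of the mitosis genes was -0.26, against -0.11 for the replication genes. The mitotic kinase Aurkb was at -0.63 (adjusted p = 9.9e-05) and Top2a, the topoisomerase of dividing cells, at -0.54 (adjusted p = 9.6e-05). No mitosis gene was called higher by edgeR at an unadjusted p under 0.05 or by DESeq2 or limma-voom, and 23 were lower at an unadjusted p under 0.05. The difference between the 2 lists was not tested.

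**Figure D5:**
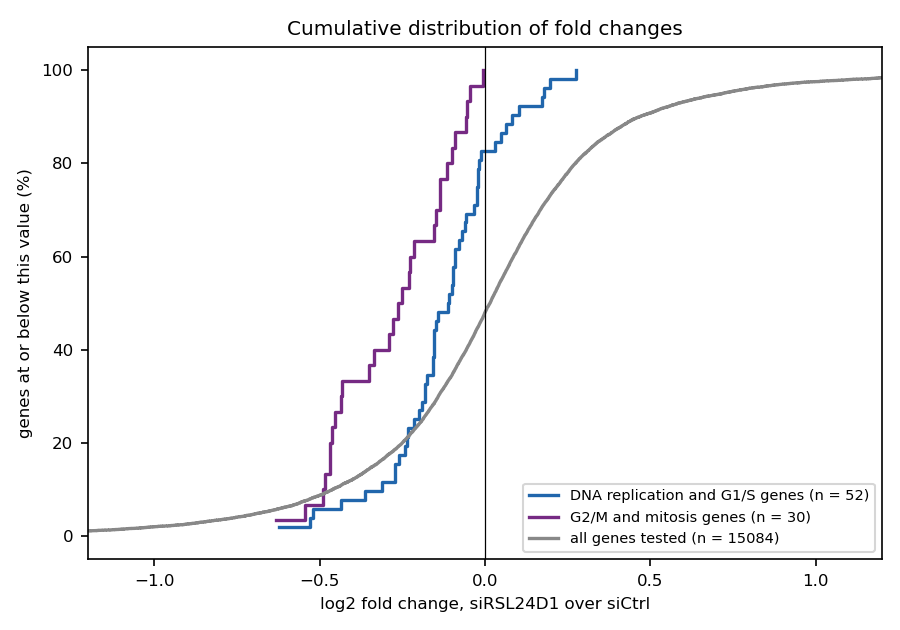
Cumulative share of genes (y axis, %) at or below each log2 fold change (x axis, siRSL24D1 over siCtrl) for the 52 replication genes, 30 G2/M and mitosis genes and 15084 genes tested. The replication genes lie between -0.62 and 0.28, with a median of -0.11 against -0.26 for the mitosis genes and 0.02 for all genes.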

How the data were processed

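Values are estimated counts per gene, as deposited by the authors in 1 table. The submitters' processing notes name STAR (2.7.0f), Salmon (0.14.1) and the build GRCm38. What each tool did, the annotation and the strand setting are not stated there. Of the values of a library, 21.6% to 22.7% were not whole at a tolerance of 1e-09.

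Members and lists were chosen with earlier results of these data known. Tests had been planned for counts, so the estimated counts were rounded to whole numbers. Genes were kept by filterByExpr (minimum count 10, minimum total 15), scaled by TMM and tested two-sided by quasi-likelihood in edgeR 4.0.16 (R 4.3.3) with group as the only term. Calls use a Benjamini-Hochberg adjusted p under 0.05 over 15084 genes, and 95% intervals come from the same fit. Common biological variation was 7.48%. The step was tested on simulated data.

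Values in all libraries are given for the member with the largest change in each role, members past an absolute log2 fold change of 0.5 and the 8 genes of the 4 ratios. From each pathway list and the mitosis list the 2 called genes with the largest change are named. Marker genes, Pold3, Pole3, Pole4, Rb1, Fbxw7, Ccnd1, Ccnd3, Cdkn1a, Rbl1, Rbl2, Cdk4 and Cdk6 were named after their values were seen. So were Cdkn2b, Cdkn2d, E2f5, E2f6, Tfdp1, Mybl2 and Ccna2. Gene models and transcript lengths are from GENCODE M21 (GRCm38). Alternatives were DESeq2 1.42.0 size factors and Wald test, library totals, upper-quartile scaling, other filters, limma-voom (limma 3.58.1), glmTreat, an adjusted p under 0.01, a loess correction for transcript length, the replicate number as a block and leaving out each library.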

Additional observations from a re-analysis of the deposited data

How the results depend on the processing

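The direction of every called member held under all alternatives run. Of 936 values for single members, 806 kept their direction and side of the threshold, 94 lost the call, 15 gained one and 21, from 9 members without a call, changed sign. Members called higher numbered 2 (3.85%) with upper-quartile scaling, 2 (3.85%) after the length correction, 0 with glmTreat, 1 (1.92%) at an adjusted p under 0.01, and 1 to 3 without 1 library. Of all genes, 18.4%, 18.3%, 7.31% and 12.5% were higher in these settings, and 14.5% to 22.0% without 1 library. Members called lower numbered 12 (23.1%) after the length correction, 5 (9.62%) with glmTreat, 10 (19.2%) at an adjusted p under 0.01, and 11 to 28 without 1 library. Of all genes, 17.6%, 7.46% and 12.4% were lower in these settings, and 14.1% to 21.5% without 1 library. Over all genes, glmTreat called 1102 higher and 1126 lower, an adjusted p under 0.01 gave 1886 higher and 1867 lower, and leaving out 1 library gave 2210 to 3356 higher and 2147 to 3285 lower. Rsl24d1 ranged from -0.92 to -0.87. The changed signs were Mcm2 with library totals (0.0034), Gins4 after length correction without and with the replicate block (0.0201 and 0.0196), Pole with library totals (0.0102) and without siRSL24D1 2 (0.0094; range without 1 library -0.037 to 0.0094), and Rfc3 without siCtrl 3 (-0.0199; range -0.0199 to 0.0719). Rpa2 was at 0.0072 and 0.0089 after length correction without and with the block, 0.0013 without siRSL24D1 3 and 0.0233 without siCtrl 2 (range -0.0926 to 0.0233), and Rpa3 at 0.0339 and 0.032 after those corrections. Dut was at 0.003 with library totals, 0.006 and 0.005 after those corrections and 0.0365 without siRSL24D1 1 (range -0.0598 to 0.0365). Slbp was at 0.0049, 0.011 and 0.0103 under library totals and those corrections, and Chaf1a at -0.0051 and -0.0045 after those corrections. The Cdt1 to Gmnn ratio was 0.0452 without siRSL24D1 2 and 0.0815 without siCtrl 3, and ranged from -0.13 to 0.08. The other ratios ranged from -0.32 to -0.22 for Ccne1 to Ccne2, -0.73 to -0.50 for E2f1 to E2f3 and 0.20 to 0.26 for Rrm2 to Rrm1. The cause of these changes was not tested. Scalings moved the median of all genes by -0.028 to 0.0232 (log2). Same-numbered libraries of the groups did not all deviate together (correlations -0.211, 0.126 and 0.135 for numbers 1, 2 and 3), and not every library correlated best with its own number. With the replicate number as a block, 22 members (42.3%) were lower and 4 (7.69%) higher, with Tk1 and Ung added (adjusted p = 0.0336 and 0.0317). Over all genes 3104 (20.6%) were lower and 3327 (22.1%) higher with the block.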
